A study of Mus musculus with 15 samples.

Results

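The genes described here are 10 genes of the circadian clock and of the PAR bZIP family, taken with every probe set whose only gene symbol is Dbp, Tef, Hlf, Nr1d1, Nr1d2, Per1, Per2, Per3, Cry1 or Npas2. All 10 were measured, by 19 of the 20380 probe sets with 1 symbol, and the probe sets of a gene were averaged, so that the 10 are read among 12393 genes. The 15 arrays are from mouse liver at 15 months of age on the C57B6SJL background. Of these, 5 are liver tumors of MAT1A KO mice, 5 are peritumoral tissue of such KO livers and 5 are healthy wild type liver, with no treatment in any group. Mat1a, which encodes the methionine adenosyltransferase of adult liver, had log2 values of 8.33 to 10.50 in tumors and 8.84 to 11.44 in peritumoral liver, against 12.25 to 12.72 in wild type liver. Tumor replicates 2 and 5, at 10.47 and 10.50, and peritumoral replicate 2, at 11.44, stood above the other KO arrays, which lay at 8.33 to 9.29. The labels call the KO samples biological replicates, and they do not say whether tumor and peritumoral samples of the same number came from 1 mouse. The wild type samples are numbered replicates only, so p-values measure the spread between these samples. The hour of the day at which tissue was taken is not given in the sources used here, and its part in the values below was not tested.

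The mammalian clock is a loop of transcription in nearly every cell, in which ARNTL with CLOCK or NPAS2 activates the genes of its own repressors. PER and CRY proteins block that activation, while the nuclear receptors NR1D1 and NR1D2 (REV-ERB alpha and beta) repress Arntl, Npas2, Cry1 and Nfil3. The PAR bZIP factors DBP, TEF and HLF bind D-boxes and carry the rhythm to liver genes of detoxification, and NFIL3 represses through the same sites. In liver the transcripts of most of these genes rise and fall each day, and the Dbp and Nr1d1 transcripts are among those with the strongest rhythm.

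The promoters of the members hold different clock motifs, and those with a match are shown to give the sequences through which clock factors are known to act. Sequences are of RefSeq on GRCm38.p6, each on the strand of its gene, and they come from the 250 bases before the annotated gene start, with the motif in capitals. The motifs searched, on both strands, were the E-box CACGTG and the E'-box CACGTT, which differ in the last base so that 1 stretch cannot match both, the D-box TTATGTAA or TTACGTAA, the RORE core TAGGTCA or TGGGTCA, and the CRE TGACGTCA. Of 32851 promoters, 6.02% held the E-box, 3.85% the E'-box, 0.931% the D-box, 5.38% the RORE core and 1.55% the CRE. The table held an entry for 9 of the 10 members, all but Per2.
Per1, chr11:69098763-69098808, plus strand, E-box: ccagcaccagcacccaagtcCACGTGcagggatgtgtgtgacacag
Tef, chr15:81802526-81802571, plus strand, E-box: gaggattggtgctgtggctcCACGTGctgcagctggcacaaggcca
Cry1, chr10:85185089-85185153, minus strand, E'-box (reverse) and E-box: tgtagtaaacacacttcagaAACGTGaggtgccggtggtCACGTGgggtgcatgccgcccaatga
Nr1d1, chr11:98775380-98775425, minus strand, E'-box (reverse): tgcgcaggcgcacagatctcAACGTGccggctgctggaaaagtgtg
Per3, chr4:151044796-151044890, minus strand, 2 D-boxes: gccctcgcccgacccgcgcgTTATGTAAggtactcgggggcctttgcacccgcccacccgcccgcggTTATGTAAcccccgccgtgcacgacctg
Hlf, chr11:90390918-90390946, minus strand, CRE: tcggcgcgcggtgcgggcccTGACGTCAc

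These matches are descriptions of letters in a window and not sites shown to be bound. The second annotated start of Tef also held an E-box, while the other annotated start of Per1 held none of these motifs. The windows of Dbp, Nr1d2 and Npas2 held none of them either.

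Over the whole series, the medians of the arrays lay between 5.47 and 5.68 and their lowest values between 2.61 and 2.78 on the log2 scale, and with 5 arrays in a group their number sets the precision. The mean correlation of an array with the others of its group was 0.937 in tumor replicate 2, 0.938 in tumor replicate 5, 0.944 in peritumoral replicate 2 and 0.968 in wild type replicate 4, the lowest values of their groups. The 7 granulocyte markers averaged 10.70 in wild type replicate 4, with a median of 5.44 over the wild type arrays. The 8 measured hepatocyte markers of 9 averaged 12.19 to 12.83 in tumors, 12.79 to 12.90 in peritumoral liver and 12.74 to 12.92 in wild type liver. In whole tissue, fewer cells of a type and less RNA per cell cannot be told apart.

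None of the 10 genes passed the test between groups in any of the 3 comparisons. For each of them the arrays of at least 1 group spread further than the group means lay apart. Each comparison was fitted with limma on its 5 against 5 arrays and adjusted over all 12393 genes, and a gene was called at an adjusted p under 0.05. Between tumors and wild type liver 0 of the 10 genes were called, where 0.565% of all genes were, and between peritumoral and wild type liver 0 of 10, where 0.0403% of all genes were. Between tumors and peritumoral liver 0 of 10 were called, where 0.0161% of all genes were. At an unadjusted limma p under 0.05 the members gave 1 gene for tumors against wild type liver (Hlf, lower), 0 for peritumoral against wild type liver and 1 for tumors against peritumoral liver (Per2, lower), while the shares of all genes were 17.4%, 15.1% and 9.28%. The members' arrays overlapped between the groups in every case, whereas 5.07%, 3.2% and 2.33% of all genes had groups that did not overlap in these 3 comparisons. The median log2 ratio of the 10 genes was -0.05 for tumors over wild type liver, 0.26 for peritumoral over wild type liver and -0.33 for tumors over peritumoral liver, and that of all genes was -0.05, -0.06 and 0.02. Both comparisons with wild type liver share its 5 arrays.

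**Figure D1:**
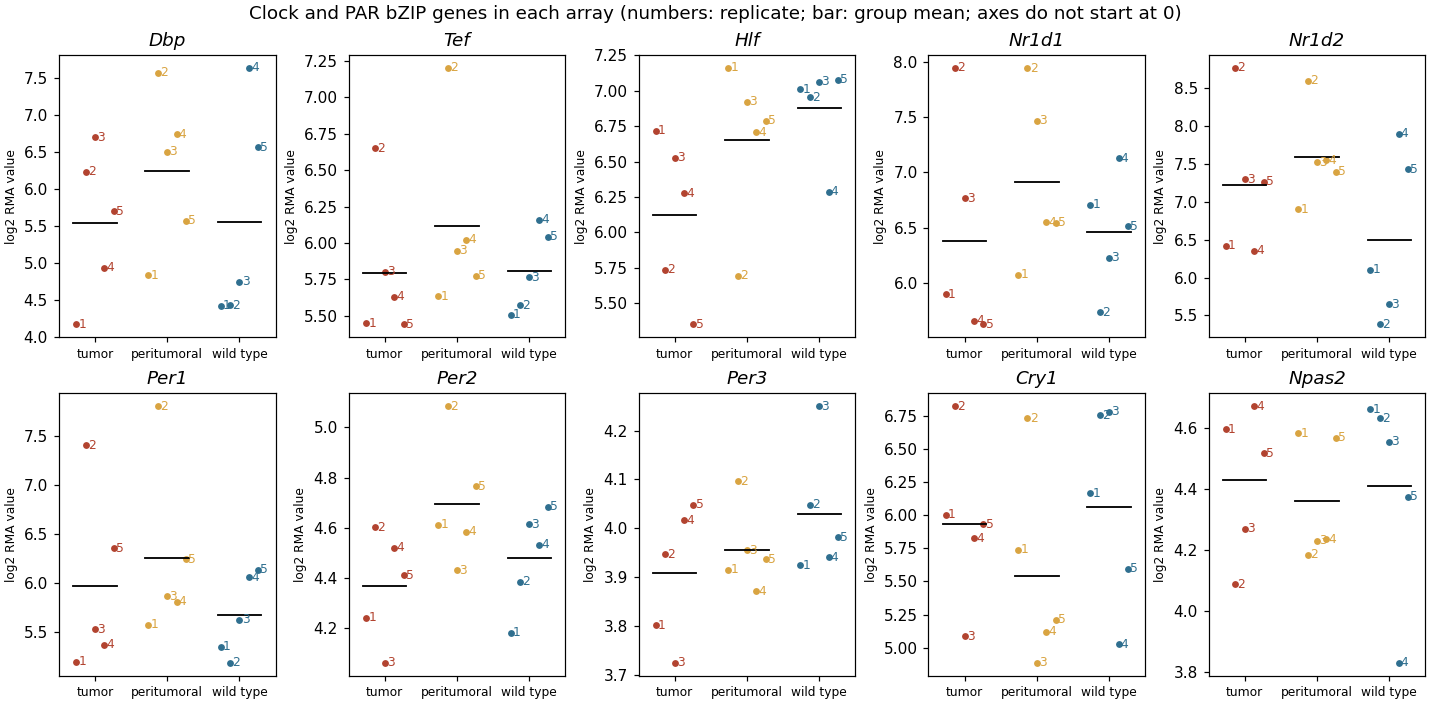
Log2 RMA value (vertical axis, one scale per gene) of each clock and PAR bZIP gene in 5 tumor, 5 peritumoral and 5 wild type arrays, numbered by replicate, with a bar at the group mean. The groups overlap for every gene, and the arrays numbered 2 of both KO tissues are the highest arrays for Nr1d1, Nr1d2 and Per1.

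Among the PAR bZIP genes, Hlf was the member with the clearest difference. Hlf had log2 values of 6.72, 5.74, 6.53, 6.28 and 5.35 in tumors 1 to 5, 7.16, 5.69, 6.92, 6.71 and 6.79 in peritumoral arrays 1 to 5, and 7.01, 6.95, 7.06, 6.29 and 7.08 in wild type arrays 1 to 5. All tumors lay below 4 of the 5 wild type arrays, and wild type replicate 4 lay among the tumors. The tumor mean of 6.12 ± 0.568 (SD, n = 5) against 6.88 ± 0.334 in wild type liver gave a log2 ratio of -0.76 with a 95% interval of -1.35 to -0.16, which is 1.69-fold lower, and an adjusted p of 0.196 in limma. The ratios to wild type liver were -0.74 and -0.77 in its 2 probe sets. Tumor replicate 5, with the lowest Hlf value, also had the lowest level of the hepatocyte markers, and their part in the difference was not tested. Hlf reached an adjusted p of 0.0368 in limma with array weights, where its ratio was -0.60, and of 0.0297 without wild type replicate 4 and tumor replicates 2 and 5, where it was -0.52. In these fits 1838 and 1431 of all genes were called, in place of 70.

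Dbp, a PAR bZIP gene with a strong daily rhythm, spread over more than 2 log2 units in each group. Its values were 4.17, 6.23, 6.70, 4.93 and 5.70 in tumors 1 to 5, 4.84, 7.57, 6.50, 6.74 and 5.57 in peritumoral liver, and 4.42, 4.43, 4.74, 7.64 and 6.56 in wild type liver. Wild type replicates 1 to 3 were low and replicates 4 and 5 high, and tumor and peritumoral replicate 1 were the lowest of their groups. The log2 ratio was -0.01 for tumors over wild type liver, with a 95% interval of -1.58 to 1.55, and 0.68 for peritumoral over wild type liver, with an interval of -0.89 to 2.26. The limma adjusted p of these was 0.993 and 0.627. Both intervals span over 3 log2 units, and the sign for tumors differed between its 2 probe sets, at -0.21 and 0.18.

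Tef, the third PAR bZIP gene, varied less than Dbp when the probe sets of each gene were averaged. It had values of 5.45, 6.65, 5.80, 5.63 and 5.44 in tumors 1 to 5, 5.63, 7.20, 5.95, 6.02 and 5.77 in peritumoral liver, and 5.51, 5.57, 5.76, 6.16 and 6.04 in wild type liver. The arrays numbered 2 were the highest in both KO tissues, and the others overlapped with wild type liver. Its log2 ratios were -0.01 for tumors over wild type liver (limma adjusted p = 0.980) and 0.31 for peritumoral over wild type liver (adjusted p = 0.576). For peritumoral over wild type liver its 3 probe sets gave 0.50, 0.52 and -0.10, the last with group means of 3.51 to 3.61. The first had SDs of 0.978 in tumors and 0.998 in peritumoral liver. The 2 Dbp probe sets had 0.793 and 1.24 in tumors and 0.920 and 1.23 in peritumoral liver.

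Of the receptors that repress Arntl, Nr1d2 had the largest mean difference of all members. Nr1d2 was at 6.42, 8.77, 7.29, 6.35 and 7.26 in tumors 1 to 5, 6.90, 8.59, 7.52, 7.55 and 7.40 in peritumoral liver, and 6.10, 5.38, 5.65, 7.90 and 7.43 in wild type liver. Every KO array lay above wild type replicates 1 to 3, while wild type replicates 4 and 5 lay within the range of the KO arrays. The peritumoral mean of 7.59 ± 0.619 against 6.49 ± 1.11 in wild type liver (SD, n = 5 each) gave a log2 ratio of 1.10 with an interval of -0.01 to 2.21, or 2.14-fold higher, at an adjusted p of 0.336 in limma. For tumors over wild type liver the log2 ratio was 0.73 (interval -0.57 to 2.03, limma adjusted p = 0.539).

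Nr1d1 was at 5.90, 7.95, 6.77, 5.66 and 5.63 in tumors 1 to 5, 6.08, 7.94, 7.47, 6.55 and 6.54 in peritumoral liver, and 6.71, 5.74, 6.23, 7.13 and 6.51 in wild type liver. Both arrays numbered 2 stood near 7.95, above all wild type arrays. The log2 ratios to wild type liver were -0.08 in tumors (limma adjusted p = 0.939) and 0.45 in peritumoral liver (adjusted p = 0.540).

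**Figure D2:**
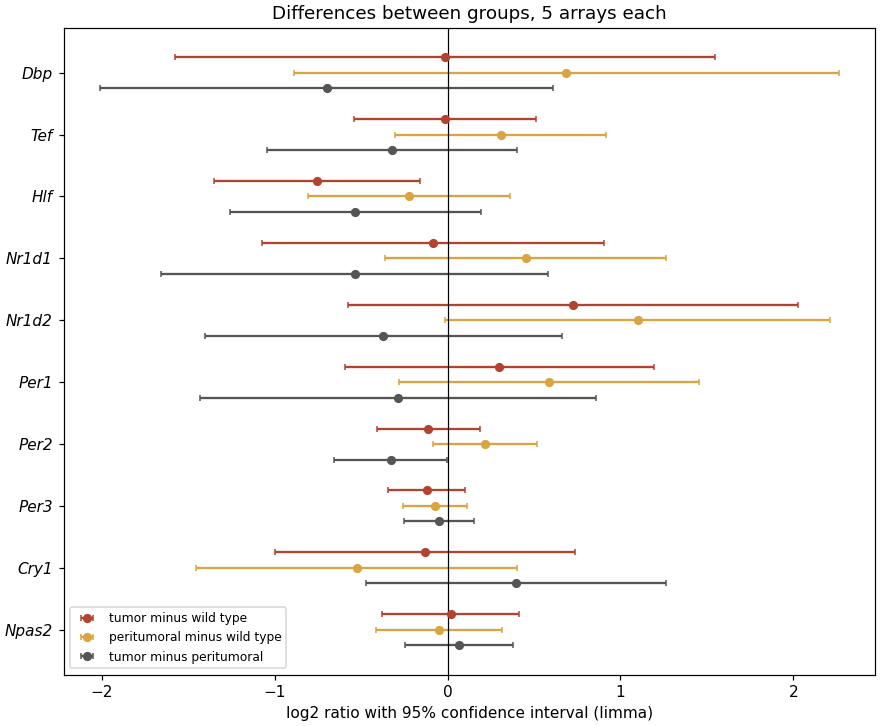
Log2 ratio (horizontal axis) of each member for tumor minus wild type, peritumoral minus wild type and tumor minus peritumoral, with 95% confidence intervals from limma on 5 arrays per group. The intervals cross 0 except those of Hlf for tumor minus wild type (-1.35 to -0.16) and Per2 for tumor minus peritumoral, and no gene passed the adjusted threshold.

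Of the 4 members that are PER or CRY repressors, Per1 and Cry1 had the largest SDs in each group. Per1, whose transcript also responds to glucocorticoids and to feeding, was at 5.20, 7.40, 5.53, 5.37 and 6.35 in tumors 1 to 5, 5.57, 7.80, 5.86, 5.81 and 6.24 in peritumoral liver, and 5.35, 5.19, 5.62, 6.06 and 6.13 in wild type liver. The arrays numbered 2 and, less so, 5 were high in both KO tissues, and the other KO arrays lay within the wild type range. Its log2 ratios were 0.30 for tumors over wild type liver (limma adjusted p = 0.716) and 0.59 for peritumoral over wild type liver (adjusted p = 0.470). In the arrays numbered 2 of tumor and peritumoral tissue, the 10 glucocorticoid-responsive genes listed averaged 10.52 and 10.94. The group medians were 8.83 and 8.93. There the 10 measured feeding genes averaged 6.59 and 6.19, with group medians of 8.06 and 8.12. The 9 measured fasting genes averaged 8.36 and 8.73, with medians of 7.82 and 7.35. The part of these responses in the members' values was not tested.

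Cry1 was at 6.0, 6.82, 5.08, 5.83 and 5.93 in tumors 1 to 5, 5.74, 6.73, 4.89, 5.12 and 5.21 in peritumoral liver, and 6.17, 6.75, 6.78, 5.03 and 5.59 in wild type liver. In wild type liver replicates 1 to 3 were high and replicates 4 and 5 low, the reverse of Dbp and Nr1d2. The log2 ratio was -0.13 for tumors over wild type liver (interval -0.999 to 0.74, limma adjusted p = 0.883) and -0.53 for peritumoral over wild type liver (interval -1.45 to 0.40, adjusted p = 0.535). Without peritumoral replicate 2 and wild type replicate 4 the ratio of Cry1 was -1.09 at an adjusted p of 0.0439, and 958 of all genes were then called in place of 5.

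Per2, Per3 and Npas2 lay low on the scale of these arrays, with group means between 3.91 and 4.70. Per2, a repressor of the loop, ranged over 4.06 to 4.60 in tumors, 4.43 to 5.08 in peritumoral liver and 4.18 to 4.68 in wild type liver. Its tumor mean of 4.37 ± 0.218 against 4.70 ± 0.248 in peritumoral liver (SD, n = 5 each) gave a log2 ratio of -0.33 and an adjusted p of 0.535 in limma, with the groups overlapping. Its 2 probe sets gave -0.61 and -0.05 for this ratio. Per3 ranged over 3.72 to 4.05 in tumors, 3.87 to 4.10 in peritumoral liver and 3.92 to 4.25 in wild type liver. Npas2, a partner of ARNTL, ranged over 4.09 to 4.67 in tumors, 4.18 to 4.58 in peritumoral liver and 3.83 to 4.66 in wild type liver. Their log2 ratios were between -0.12 and 0.07 in the 3 comparisons, at limma adjusted p of 0.549 to 0.968.

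The spread within a group was larger for most members than for most genes. The median SD of the 10 genes was 0.593 in tumors, 0.622 in peritumoral liver and 0.382 in wild type liver, and the medians of all genes were 0.285, 0.200 and 0.179. The SD was above the median of all genes for 7, 8 and 9 of the 10 genes in these groups. In wild type liver Dbp had an SD of 1.46, larger than that of 99.5% of genes, followed by Nr1d2 with 1.11 (99.1%) and Cry1 with 0.758 (97.5%). Per3 had an SD smaller than that of most genes in each group, at 0.140, 0.0851 and 0.133.

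Arntl, Nfil3 and Bhlhe40 differed among the wild type arrays along the same line as Dbp and Cry1. Arntl, the partner of CLOCK, was at 7.30, 7.35, 7.33, 5.78 and 6.57 in wild type arrays 1 to 5, and Nfil3, the repressor at D-boxes, at 9.10, 9.12, 9.08, 7.41 and 7.63. Bhlhe40, another repressor that binds E-boxes, was at 7.58, 8.14, 8.18, 9.26 and 8.99. Arntl and Nfil3 were thus high in wild type replicates 1 to 3 and low in 4 and 5, like Cry1 and Npas2, and Bhlhe40 was low where they were high, like Dbp and Nr1d2. In the same arrays the 3' minus 5' signal of the actin control probe sets was 1.11, 1.10, 0.78, 0.54 and 0.62, a sign of RNA or labelling quality, and its part was not tested.

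Cry2, the paralog of Cry1, was high only in the arrays numbered 2, at 8.51 in the tumor and 8.73 in the peritumoral array, against 5.47 to 6.64 in the other KO arrays and 6.51 to 6.87 in wild type liver. Clock was at 5.71 to 7.03 in tumors, 6.50 to 7.21 in peritumoral liver and 6.43 to 7.38 in wild type liver, with a log2 ratio of -0.59 for tumors over wild type liver (limma adjusted p = 0.287). Bhlhe41, a paralog of Bhlhe40, stayed between 3.49 and 4.25 in all arrays. Of the 15 other clock genes measured, of 19 listed, 0 were called in any comparison by limma, and at an unadjusted p under 0.05 there were 3 for tumors against wild type liver, 2 for peritumoral against wild type liver and 1 for tumors against peritumoral liver, beside 17.4%, 15.1% and 9.28% of all genes.

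**Figure D3:**
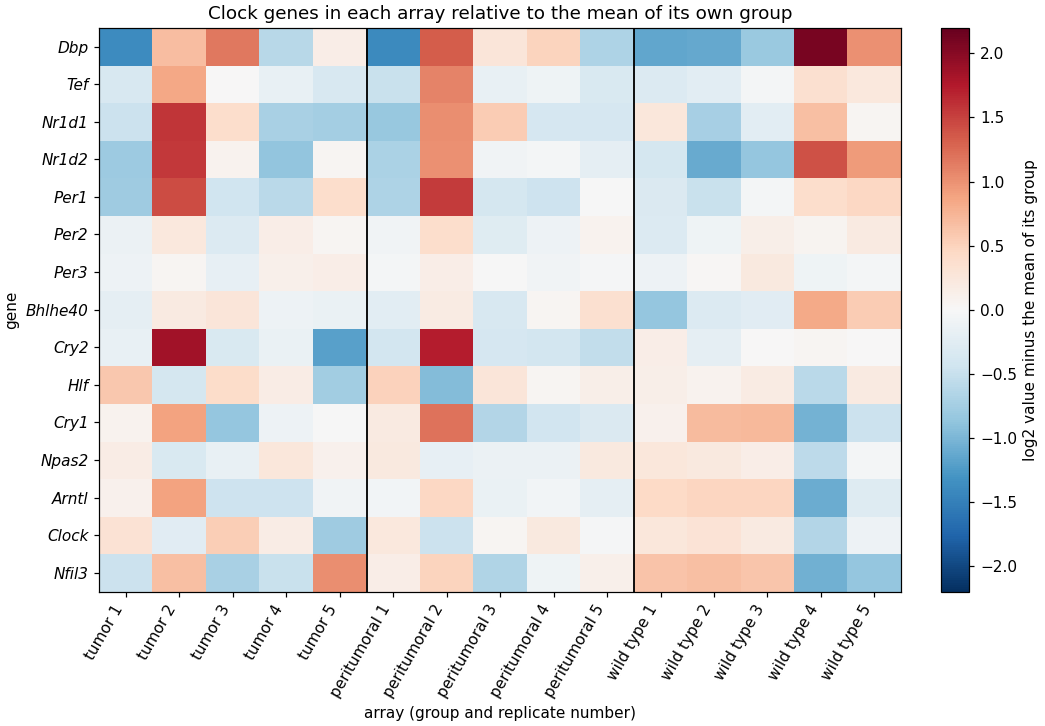
Log2 value minus the mean of its own group (colour, red above and blue below) for the 10 members and 5 other clock genes (rows) in each array (columns). Dbp and Nr1d2 are above their group mean in wild type replicates 4 and 5, where Cry1, Arntl and Nfil3 are below it.

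After each group's mean was subtracted, Nr1d2 was the gene most like Dbp of 12392 genes, with a Pearson r of 0.86 over the 15 arrays, and Npas2 was the gene with the second lowest r, at -0.90. The r with Dbp was 0.71 for Tef, 0.66 for Nr1d1, 0.62 for Per1, 0.75 for Bhlhe40, -0.33 for Cry1 and -0.59 for Hlf. The 15 arrays share their hybridisation with every other gene, so these values are descriptions. Tumor replicates 2 and 5, peritumoral replicate 2 and wild type replicate 4 had the lowest mean correlations within their own groups. Without these 4 arrays, a choice made after seeing the data, Tef had the highest r of all genes, at 0.94 over 11 arrays. Nr1d2 then had 0.85, Npas2 -0.91, Cry1 -0.88, Nfil3 -0.76 and Arntl -0.74. Over these 11 arrays the r was weaker for Hlf at -0.28, for Bhlhe40 at 0.63 and for Clock at -0.17 (-0.56 over 15 arrays). Cry2 had -0.14 (0.335 over 15 arrays) and Per2 had -0.01 (0.315). Nr1d2 and Tef thus lay high where Dbp was high, and Npas2 lay low there, with and without these arrays.

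Tumor and peritumoral arrays of the same replicate number were close to each other for most members. Over all genes, the deviations of equally numbered arrays from their group means had correlations of 0.353, 0.673, 0.271, 0.308 and 0.117 for numbers 1 to 5. All 10 members deviated to the same side in both tissues for numbers 1 and 2, and 8, 6 and 5 of 10 did for numbers 3, 4 and 5, where the shares of all genes were 57.6%, 68.8%, 49.8%, 53.7% and 50.4%. Tef was lower in the tumor than in the peritumoral array of its number by 0.18, 0.55, 0.15, 0.39 and 0.33 log2 units for numbers 1 to 5. These differences had an SD of 0.164, against 0.801 for arrays whose deviations are unrelated. For Per1 the SD was 0.226 against 1.28, for Nr1d1 0.424 against 1.25, for Cry1 0.296 against 0.962 and for Dbp 0.883 against 1.47.

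The ratio of these SDs had a median of 0.460 over the members and of 0.912 over all genes, and 9 of the 10 members lay below the median of all genes. Most members also had larger SDs within a group than most genes, and the ratio was not compared with genes of like level or spread. Of all genes 0.4% had a smaller ratio than Per1, at 0.18, and 0.7% a smaller one than Tef, at 0.20, with 2.7% below Cry1 and 3.9% below Nr1d1. Per3 had a ratio of 1.02. Since the arrays numbered 2 stood apart in both tissues, the ratio was also computed without them, which was chosen after seeing the data. It then had a median of 0.645 over the members and 1.01 over all genes, with 9 of 10 members still below the median of all genes, and Per1 was at 0.43, Tef at 0.48, Nr1d1 at 0.44 and Cry1 at 0.50.

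**Figure D4:**
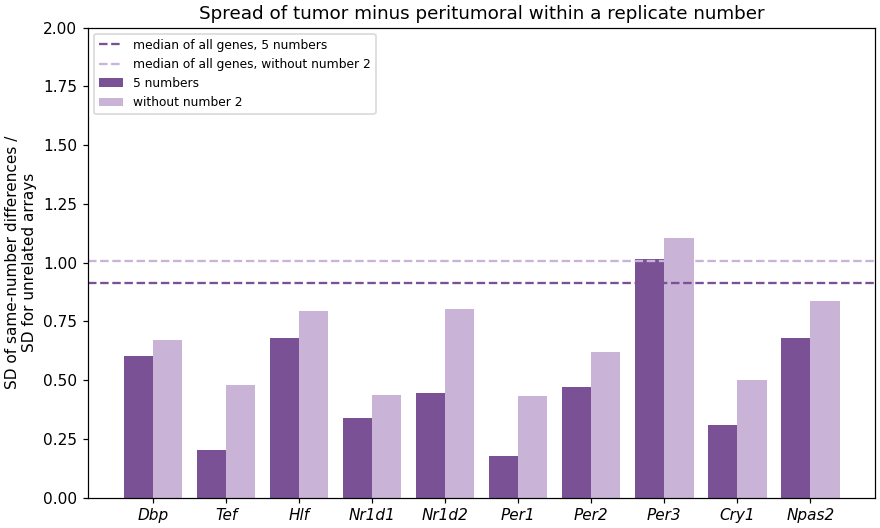
SD of the tumor minus peritumoral differences within a replicate number, divided by the SD for arrays whose deviations are unrelated (vertical axis), for each member with all 5 numbers and without number 2; dashed lines give the medians of all genes (0.912 and 1.01). Per1, Tef, Cry1 and Nr1d1 have the lowest bars with all 5 numbers, and Per3 is the member above the medians.

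Within a replicate number, 3 members differed in 1 direction in all 5 pairs of arrays, where 13.6% of all genes did. Tef and Per2 were lower in the tumor in 5 of 5, with means of -0.32 and -0.33, and Cry1 was higher in the tumor in 5 of 5, with a mean of 0.40. For each the two-sided exact sign-flip test over the 5 differences gave p = 0.0625, the smallest that 5 pairs allow. Hlf, Nr1d1, Nr1d2 and Per1 were lower in the tumor in 4 of 5. With the replicate number as a block, 0 of 10 members were called by limma, where 0.00807% of all genes were, and 6 of 10 had an unadjusted p under 0.05, where 13.3% of all genes did. Those 6 were Per2 (-0.33, adjusted p = 0.266), Nr1d1 (-0.54, 0.273), Tef (-0.32, 0.277), Cry1 (0.40, 0.296), Hlf (-0.53, 0.343) and Per1 (-0.29, 0.361). The pairing rests on the data and the shared numbers, not on a label that names the animal. It is least certain for number 5, whose correlation of 0.117 was no larger than some between KO and wild type arrays of the same number.

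**Figure D5:**
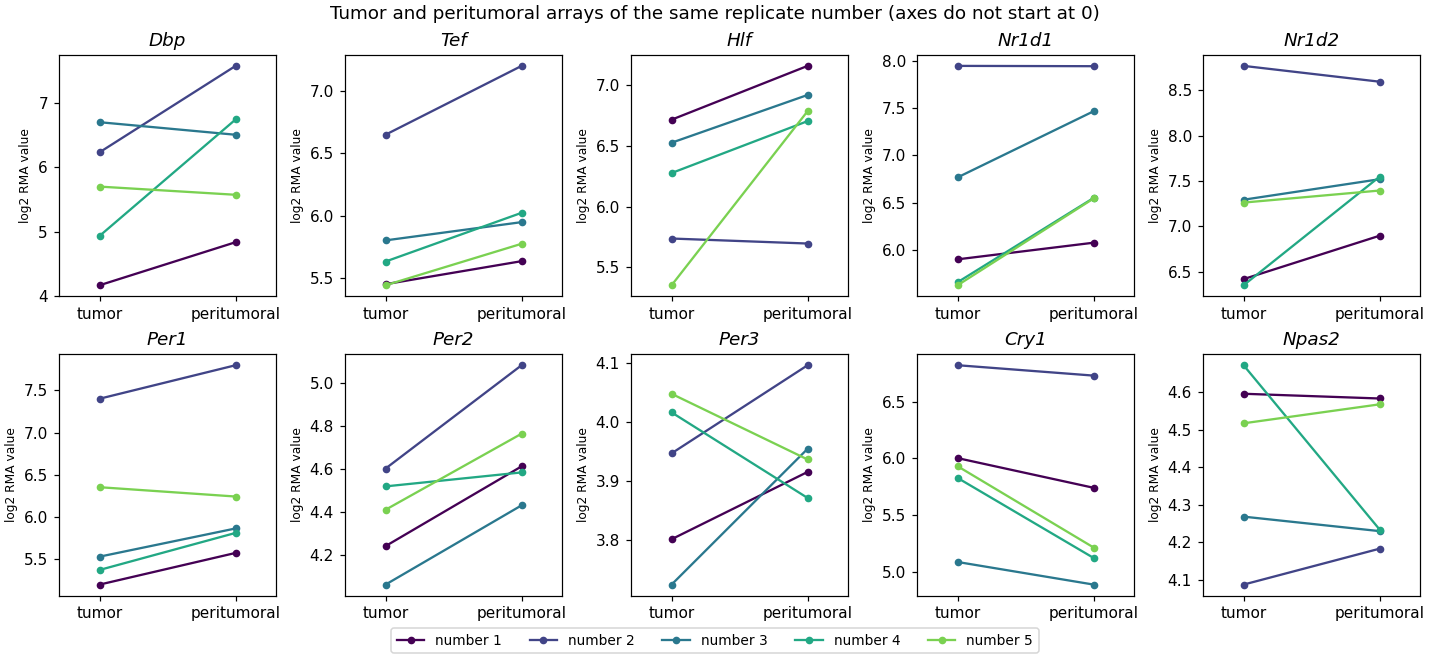
Log2 RMA value (vertical axis, one scale per gene) of each member in the tumor and peritumoral array of the same replicate number, joined by a line. The lines of Tef and Per2 all run lower at the tumor end, those of Cry1 all run higher, and number 2 is highest in both tissues for Tef, Nr1d1, Nr1d2, Per1, Per2 and Cry1.

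The genes downstream of the members were followed in lists of liver targets, and none of the genes in them was called by limma in any comparison. Of 5 measured PAR bZIP targets of 8 listed, Nr1i3, which encodes the drug-sensing receptor CAR, had a log2 ratio of -0.53 for tumors over wild type liver (limma adjusted p = 0.307). Cyp2b9, a cytochrome P450, had 2.00 there (adjusted p = 0.416), with 2 tumors below and 3 above all wild type arrays. Its peritumoral arrays split by number in the same way, at 3.74, 4.02, 10.88, 9.75 and 8.79 for numbers 1 to 5. Their log2 ratio to wild type liver was 2.39 (limma adjusted p = 0.410). The 9 measured genes under REV-ERB or ROR control include Arntl, Clock, Npas2, Nfil3 and Cry1, which are also described above. The median ratio of the 9 was -0.40 for peritumoral over wild type liver. In that comparison 0 of the 9 had a ratio above 0, where 38.9% of all genes did. Arntl and Npas2 lay near 0 there, at -0.009 and -0.05. For tumors over wild type liver 2 of the 9 had a ratio above 0, where 41% of all genes did. Elovl3, a fatty acid elongase, was at 8.0, 4.48, 9.35, 6.80 and 4.50 in tumors 1 to 5, 6.24, 4.28, 10.06, 6.28 and 5.69 in peritumoral liver, and 12.67, 12.98, 12.47, 4.66 and 12.46 in wild type liver. All KO arrays lay below 4 wild type arrays and wild type replicate 4 lay with them, so that the log2 ratios of -4.42 and -4.54 had limma adjusted p of 0.214 and 0.260.

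Of 10 clock output genes, 8 had a ratio above 0 for tumors over wild type liver and 9 for peritumoral over wild type liver, with medians of 0.42 in both, while 41% and 38.9% of all genes had a ratio above 0. Nampt, the rate-limiting enzyme of NAD salvage, was at 6.57, 7.53, 6.38, 6.35 and 6.20 in tumors 1 to 5, 6.35, 6.84, 6.44, 6.62 and 6.24 in peritumoral liver, and 5.49, 5.63, 5.79, 6.33 and 5.91 in wild type liver. The KO arrays lay above 4 of the 5 wild type arrays, and wild type replicate 4 overlapped with them. Its log2 ratios were 0.77 (limma adjusted p = 0.172) and 0.67 (adjusted p = 0.159). For tumors over peritumoral liver, Tfrc, the transferrin receptor, had 0.32 and Wee1, a kinase that restrains mitosis, had 0.52, at limma adjusted p of 0.622 and 0.638.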

How the data were processed

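RNA of 15 mouse liver samples was hybridised to Affymetrix arrays. The authors scanned the arrays with GCOS 1.4, as the submitters' processing notes give it, and deposited log2 values made by RMA, which corrects background, quantile-normalizes and summarizes each probe set; its version and a genome build are not given in the sources used here. Quantile normalization forces equal distributions, so values are relative within an array. The deposited ratios of KO to wild type arrays are the authors' own comparisons and were not used. Of 22690 probe sets, 691 with several symbols, 1606 without a symbol and 64 controls, most of which have no symbol, were dropped, and the rest were averaged for 12393 genes.

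The 2 groups of a comparison alone entered a fit in limma 3.58.1 (lmFit, eBayes; R 4.3.3), with Benjamini-Hochberg adjustment over all genes at a threshold of 0.05, and the script was tested on simulated data. The members and gene lists were chosen with earlier results of these data known. Genes named besides the members are Arntl, Clock, Nfil3, Cry2, Bhlhe40, Bhlhe41, Mat1a, in each list the called genes or the 2 with the smallest p, and the 5 genes most and least like Dbp; Elovl3 and the others fall under this rule. Tumor and peritumoral numbers were taken as paired because all same-number correlations of deviations exceeded 0.1 and 4 of 5 tumors matched their own number best. With wild type arrays, which are from other mice and were left unpaired, these correlations were between -0.223 and 0.207. The 0.117 of number 5 lies within that range, and tumor replicate 4 matched peritumoral replicate 1 best. These values therefore do not establish numbers 4 and 5 as pairs. Alternatives were the highest probe set, probe sets open to cross-hybridisation left out, all groups in 1 fit, other scalings, the lowest 40% of genes left out, trend, array weights, the replicate block, 1 test per probe set, and arrays left out.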

Additional observations from a re-analysis of the deposited data

Results flagged for a closer look

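Of 30 combinations of a member and a group, 2 held an array whose gap to its nearest neighbour was large for 5 arrays by Dixon's test, where chance gives about 1 in 20. Tef was at 7.20 in peritumoral replicate 2, and the other peritumoral arrays lay between 5.63 and 6.02. Hlf was at 6.29 in wild type replicate 4, with the 4 others of wild type liver between 6.95 and 7.08.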

How the results depend on the processing

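Leaving out any 1 array kept 0 members called in each comparison, and 0 of 10 were called for tumors against peritumoral liver in every alternative. One member was called, 1 in place of 0, for tumors against wild type liver with array weights (Hlf) and without wild type replicate 4 and tumor replicates 2 and 5 (Hlf), and for peritumoral against wild type liver without peritumoral replicate 2 and wild type replicate 4 (Cry1). Small ratios changed sign. For tumors over wild type liver, Dbp was 0.18 by its highest probe set, 0.033 when normalized again, 0.34 without the 3 arrays that stand apart and 0.23 also without tumor replicate 5, Tef was 0.011 by its highest probe set, Per1 was -0.090 with array weights and -0.21 without these 4 arrays, and Npas2 was -0.042 without the 3 and -0.043 without the 4. For peritumoral over wild type liver, the highest probe set gave -0.10 for Per2 and 0.066 for Per3, and normalizing again gave 0.029 for Per3 and 0.022 for Npas2. With 1 array left out, the tumor over wild type ratio ran between -0.30 and 0.51 for Dbp, -0.23 and 0.074 for Tef, -0.48 and 0.10 for Nr1d1, -0.06 and 0.49 for Per1, -0.39 and 0.081 for Cry1 (-0.69 without the 4 arrays), and -0.13 and 0.10 for Npas2. The peritumoral over wild type ratio ran between -0.37 and 0.016 for Hlf and -0.20 and 0.012 for Npas2, and tumor over peritumoral between -0.65 and 0.10 for Per1. The cause was not tested. The replicate block changed no call of a member; its ratios, such as -0.33 for Per2 and -0.76 for Hlf, equal those without it. Counts over all genes ran from 10 to 1838 (70 as reported) for tumors and from 0 to 1082 (5) for peritumoral liver against wild type liver, and from 0 to 673 (2) between the KO tissues, the highest with array weights. Cry1 was not measured without probe sets open to cross-hybridisation, nor Per2, Per3 and Npas2 without the lowest 40% of genes. The number of arrays, 5 a group, and the low signal of Per2, Per3 and Npas2 limit the precision.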

Other observations

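Genes that answer to glucocorticoids, feeding and temperature, which also act on the clock, gave 0 calls by limma in any comparison. Of 11 temperature and heat shock genes measured, 9 had a ratio above 0 for tumors over wild type liver, with a median of 0.45, where 41% of all genes did. For peritumoral over wild type liver 6 of the 11 did, beside 38.9% of all genes. For tumors over peritumoral liver 8 of the 11 did, beside 54%. Of 10 glucocorticoid-responsive genes, 8 had a ratio above 0 for peritumoral over wild type liver, where 38.9% of all genes did. For tumors over peritumoral liver 1 of the 10 had a ratio above 0, where 54% of all genes did. Mt2, a metallothionein, was at 8.62, 12.73, 11.24, 9.23 and 12.68 in tumors 1 to 5, 11.73, 13.34, 11.08, 11.43 and 13.39 in peritumoral liver, and 6.17, 6.41, 8.93, 12.95 and 6.03 in wild type liver. The peritumoral arrays lay above 4 of the 5 wild type arrays, with a log2 ratio of 4.10 (limma adjusted p = 0.216). Errfi1, a feedback inhibitor of the EGF receptor, had a log2 ratio of -0.92 for tumors over peritumoral liver (limma adjusted p = 0.173). For peritumoral over wild type liver the 10 feeding genes measured had a median ratio of -0.52. Of these 10, 1 had a ratio above 0, where 38.9% of all genes did. Acly, which makes cytosolic acetyl-CoA, had -0.63 (limma adjusted p = 0.294). Of 9 fasting genes measured, 4 had a ratio above 0 for tumors over wild type liver, where 41% of all genes did. For tumors over peritumoral liver 4 of the 9 did, beside 54% of all genes. The median ratios were -0.16 and -0.12. Among them Fgf21, a hepatic hormone, had 1.53 for tumors over wild type liver (adjusted p = 0.265, limma) and 1.73 for tumors over peritumoral liver (adjusted p = 0.478). Igfbp1 had 1.43 for tumors over wild type liver (limma adjusted p = 0.245).

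Apart from clock genes, the genes most like Dbp after subtracting group means were Ank3 (r = 0.86), Ccn2 (0.85), Tmem45b (0.84) and Tgfbr2 (0.83). Those with the lowest r were Zbtb7b (-0.92), Pcnx4 (-0.89), Mical2 (-0.88) and Srrt (-0.87), over 15 arrays that share hybridisation and labelling across genes.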
